A study of Mus musculus with 24 samples.

Results

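Peroxisomes exchange substrates and cofactors with the cytosol through transporters and channels in their membrane, and 8 genes for such proteins or their close relatives were examined here, of 55335 genes in the counts. They were taken by symbol from the GRCm38 annotation and comprise the ABCD transporters Abcd2, Abcd3 and Abcd4, the carrier Slc25a17, the channel protein Pxmp2 and its relatives Mpv17 and Mpv17l, and the membrane protein Pxmp4. RNA of whole kidneys was sequenced from 24 adult mice on the C57BL/6J background, 6 per group. All mice carried the floxed alleles Pex5 lox/lox and received doxycycline (DOX) for 2 weeks from 8 weeks of age. Males (cKOm) and females (cKOf) that also carried Pax8-rtTA and LC1 deleted Pex5 in the renal tubule. Male (Ctrlm) and female (Ctrlf) littermates without these transgenes served as controls. By electron microscopy, the paper found almost no peroxisomes in proximal tubules of either cKOm or cKOf. It still detected full-length Pex5 mRNA and PEX5 protein in cKOf, however, and proposes that excision was incomplete there. A difference between cKOm and cKOf can thus come from sex or from the degree of deletion, which cannot be told apart here. The kidneys were collected 4 weeks after DOX had ended, at ZT9, 9 hours after the light was switched on. Pax8-rtTA acts along the tubule and not in the other cells of the kidney, whose RNA was part of every library, and a lower level in a whole kidney can come from fewer cells of a type or from less RNA per cell, which cannot be told apart here.

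PEX5 is the receptor that brings matrix enzymes with a PTS1 signal into the peroxisome, whereas membrane proteins reach the organelle by another route, through PEX3, PEX16 and PEX19. ABCD3 (PMP70) imports CoA esters of long-chain, branched-chain and dicarboxylic acids and bile acid intermediates for beta-oxidation in the matrix, and ABCD2 does so for very long-chain and polyunsaturated acids. SLC25A17 (PMP34) carries CoA, FAD and NAD across the membrane, and PXMP2 forms a channel for small solutes. The proximal tubule, where peroxisomes are abundant, is the main site of fatty acid oxidation in the kidney.

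The sequence upstream of the start is shown for Abcd3 and Pxmp4. They are the members called higher in cKOm than in Ctrlm (edgeR adjusted p under 0.05), and in females only Abcd3 was called. The sequences are from RefSeq (GRCm38.p6), whose promoter table held 4 of the 8 members (Abcd3, Mpv17, Pxmp4 and Slc25a17). Each run holds the 250 bases before the start, 5′ to 3′ on the minus strand, on which both genes lie, and capitals mark CCAAT and GGGCGG on either strand. The RefSeq start of Pxmp4 lies a short way inside the gene as GENCODE places it.
Abcd3, chr3:121815303-121815552: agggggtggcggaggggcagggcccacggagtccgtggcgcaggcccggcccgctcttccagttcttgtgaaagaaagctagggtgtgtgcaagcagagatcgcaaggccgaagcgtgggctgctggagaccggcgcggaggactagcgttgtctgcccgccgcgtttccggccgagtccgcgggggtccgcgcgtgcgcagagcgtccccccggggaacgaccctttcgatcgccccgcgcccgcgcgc
Pxmp4, chr2:154603674-154603923: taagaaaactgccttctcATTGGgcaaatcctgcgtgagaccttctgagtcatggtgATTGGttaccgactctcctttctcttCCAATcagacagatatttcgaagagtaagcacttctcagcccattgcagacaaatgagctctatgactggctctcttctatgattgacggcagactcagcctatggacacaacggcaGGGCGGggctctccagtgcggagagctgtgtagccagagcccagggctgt
The Abcd3 sequence was 72.0% G and C and held neither motif, whereas the Pxmp4 sequence was 51.2% G and C and held 3 copies of CCAAT and 1 of GGGCGG, none overlapping. Over 32851 promoters of the same length the median was 52.4% G and C, CCAAT was found on either strand at least once in 33.8% and at least 3 times in 2.79%, and GGGCGG in 32.7%. The Slc25a17 sequence held 1 copy of each motif and that of Mpv17 neither. AGGTCA, a site bound by nuclear receptors, was on neither strand of the 5 sequences of these 4 genes (14.02% of all promoters), nor was the DR1 element, a direct repeat of such sites with 1 base between (0.338% of all promoters). Of these motifs, all but the DR1 element were chosen after the values were seen. No match says only that these letters were not in these windows.

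The counts on genes summed to 19376152 to 28470831 reads per kidney. Levels are given in CPM, read counts divided by a library size that was scaled with edgeR's TMM method, and a floor of 3 counts was 0.105 to 0.155 CPM, which covers counting error only. The 10 defining markers of the proximal tubule were detected in every group. They summed to 11412 to 12814 CPM in Ctrlm, 10134 to 11252 in cKOm, 12063 to 13545 in Ctrlf and 10784 to 12627 in cKOf. Of the 10, 3 were lower in cKOm than in Ctrlm and 0 were higher. The median log2 fold change of the 10 was 0.0029 in males and -0.074 in females. Of the markers of other kidney cells, 1 of 5 for the thick ascending limb and 2 of 8 for the distal tubule and collecting duct were higher in cKOm, 1 of these 8 was lower in cKOm and 1 in cKOf, and 1 of 6 for macrophages was lower in cKOm. The macrophage markers summed to 108 to 171 CPM in Ctrlm, 81.9 to 116 in cKOm, 105 to 237 in Ctrlf and 89.98 to 129 in cKOf, and their median change on the log2 scale was -0.54 for males and -0.43 for females. The part of these shifts in the results of the members was not tested. Pex5 itself had a value of -0.31 on the log2 scale in males (edgeR adjusted p = 0.0219) and of -0.21 in females (adjusted p = 0.177). These counts cover the whole gene and all cells of the kidney, so they do not measure how completely Pex5 was deleted in the tubule. The paper reports lower Pex5 mRNA in both sexes and almost no PEX5 protein in cKOm. The sum of 10 hepatocyte markers was 117 to 974 CPM in Ctrlm, 86.1 to 502 in cKOm, 82.3 to 130 in Ctrlf and 61.0 to 139 in cKOf, with all 10 detected in every group, and 5 kidneys, 4 of Ctrlm and 1 of cKOm, had more than 400 CPM. Each result was therefore also computed with the hepatocyte level as a covariate and without these 5 kidneys, which left 2 Ctrlm mice.

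In males, the RNA of Abcd3 and Pxmp4 was higher after deletion of Pex5, by 1.41-fold and 1.25-fold, and the other 6 members did not pass the threshold. These 2 of 8 members stand beside 9.05% of the 16092 genes tested that passed in males, 4.14% in the direction higher in cKOm (edgeR quasi-likelihood test, adjusted p under 0.05). In females, Abcd3 alone passed, with 1.34-fold more RNA in cKOf, where 0.851% of the genes tested passed and 0.391% were higher. The groups did not overlap for Abcd3 in males, 1 of 8 members where 7.38% of all genes tested had no overlap, and for none of the members in females, where 0.559% had none. The median log2 fold change of all genes tested was 0.015 in males and 0.0019 in females.

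**Figure D1:**
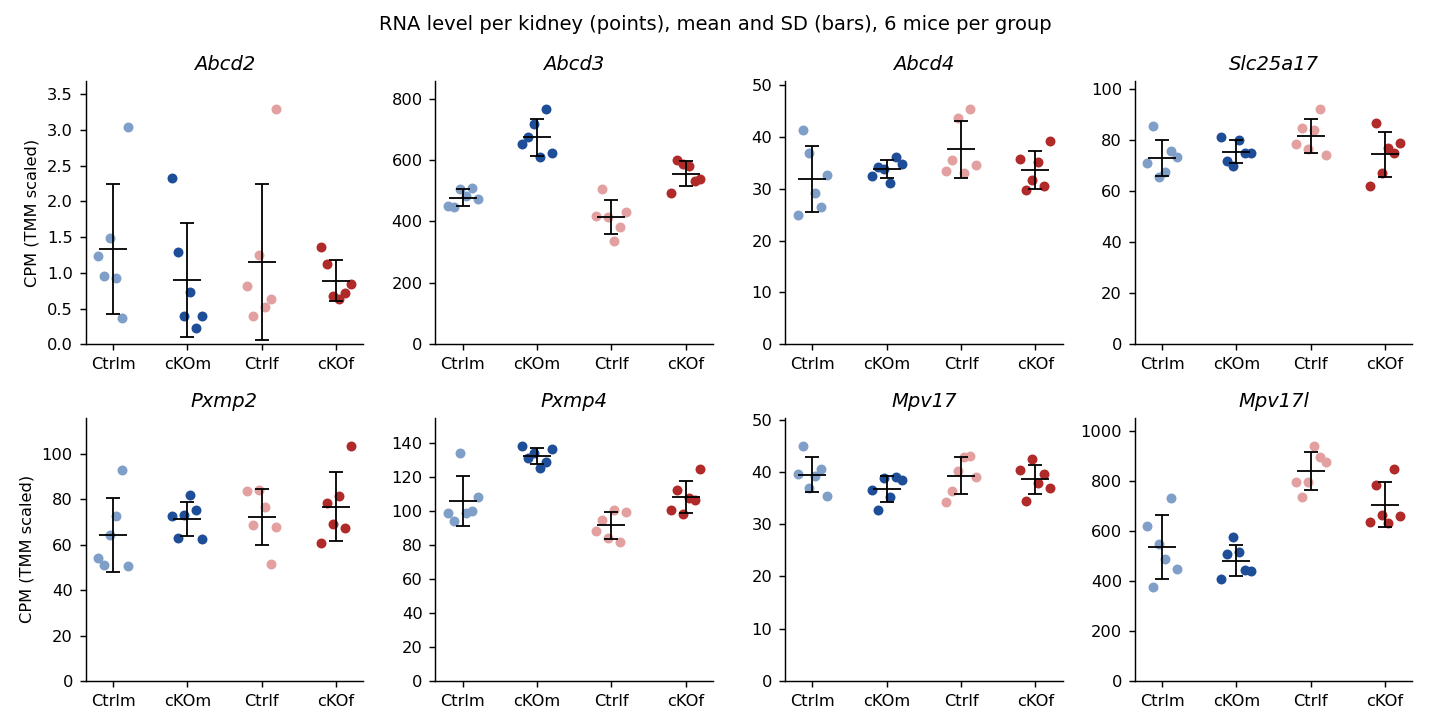
RNA level of the 8 members in CPM (y axis, from 0) in Ctrlm, cKOm, Ctrlf and cKOf mice (x axis). Each point is 1 kidney, spread sideways in the order of the replicate numbers, and bars show the mean and SD of 6 kidneys. All 6 cKOm kidneys lay above all 6 Ctrlm kidneys for Abcd3, the sexes separate for Mpv17l within each genotype, and Abcd2 has 1 kidney at 3.04 CPM in Ctrlm, 1 at 2.33 in cKOm and 1 at 3.29 in Ctrlf above the rest of their groups.

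Abcd3 (ENSMUSG00000028127, chromosome 3 from 121758774 to 121815302, minus strand) had the most RNA of the 3 ABCD members, per length as in CPM. Its level ranged from 446 to 509 CPM in Ctrlm, with a median of 477, and from 609 to 765 CPM in cKOm, with a median of 663. Every cKOm kidney was thus above every Ctrlm kidney. The log2 fold change was 0.50 (standard error 0.082, 95% interval 0.33 to 0.67, edgeR adjusted p = 2.06e-04), and the exact two-sided permutation test of the means gave p = 0.00216, the smallest that 6 mice against 6 allow. In females, the level ranged from 336 to 506 CPM in Ctrlf, with a median of 416, and from 492 to 600 in cKOf, with a median of 559. The ranges met in a single kidney of each group, as 5 of 6 cKOf kidneys were above all Ctrlf kidneys. The female log2 fold change was 0.42 (standard error 0.082, 95% interval 0.25 to 0.59, edgeR adjusted p = 0.00146, exact permutation p = 0.00433). Without the 5 kidneys rich in hepatocyte transcripts, the male log2 fold change was 0.45 (adjusted p = 0.0779), and with the hepatocyte covariate it was 0.47 (adjusted p = 0.00673).

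Abcd2 (ENSMUSG00000055782, chromosome 15 from 91145871 to 91191799, minus strand), the transporter of very long-chain and polyunsaturated acyl-CoA, had few reads, with 5 to 76 counts per kidney. The level was 0.365 to 3.04 CPM in Ctrlm (median 1.10), 0.223 to 2.33 in cKOm (median 0.567), 0.397 to 3.29 in Ctrlf (median 0.724) and 0.628 to 1.36 in cKOf (median 0.777). The groups overlapped throughout. The male log2 fold change was -0.58 (95% interval -1.68 to 0.52, edgeR adjusted p = 0.682), an interval from 0.313 to 1.44 times the Ctrlm level. In females it was -0.37 (-1.47 to 0.74, adjusted p = 0.822), or 0.361 to 1.67 times the Ctrlf level.

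The spread of Abcd2 between kidneys went with markers of adipocytes, the cells of fat tissue. Over the 24 kidneys, log2 CPM of Abcd2 correlated with the log2 of the summed CPM of 8 adipocyte markers (Adipoq, Plin1, Cidec, Fabp4, Retn, Cfd, Adig and Lep). The r was 0.79, and 0.81 after the mean of each group was subtracted. Abcd2 and the markers were read from the same libraries, and the value is a description. The markers summed to 38.5 to 51.7 CPM in 5 Ctrlf kidneys and to 389 in Ctrlf replicate 6, the kidney with the most Abcd2. All 8 were detected in every group. They reached 127 CPM in Ctrlm replicate 6 and 158 in cKOm replicate 1, which had the most Abcd2 of their groups. Without Ctrlf replicate 6, the female log2 fold change of Abcd2 was 0.30 in place of -0.37. Once the adipocyte level entered the model, the estimate for Abcd2 was -0.67 in males (adjusted p = 0.313) and -0.33 in females (adjusted p = 0.711). In that fit, 2 of the 3 ABCD members, Abcd3 and Abcd2, had an unadjusted p under 0.05 in males by edgeR, against 1 without the adipocyte level. Of all 16092 genes tested, 4039 had one in males without the adipocyte level. Whether adipocytes hold the Abcd2 RNA was not tested.

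**Figure D2:**
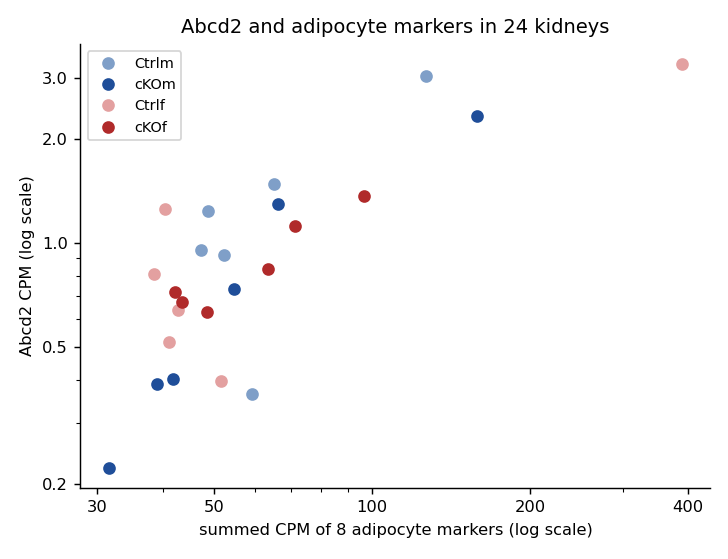
Abcd2 in CPM (y axis, log scale) against the summed CPM of 8 adipocyte markers (x axis, log scale) in 24 kidneys, with 1 point per kidney coloured by group. The kidney at 389 CPM of adipocyte markers has 3.29 CPM of Abcd2, and the kidney with the fewest markers (31.6 CPM) has the least Abcd2 (0.223 CPM).

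Abcd4 (ENSMUSG00000021240, chromosome 12 from 84601464 to 84617413, minus strand) belongs to the ABCD family by sequence but is known for the export of cobalamin from lysosomes. Its level was 24.9 to 41.3 CPM in Ctrlm (median 30.9), 31.2 to 36.1 in cKOm (median 34.1), 33.0 to 45.3 in Ctrlf (median 35.0) and 29.7 to 39.2 in cKOf (median 33.4). The cKOm kidneys all lay within the range of the Ctrlm kidneys. Its log2 fold change was 0.081 in males (95% interval -0.15 to 0.31, edgeR adjusted p = 0.803) and -0.16 in females (-0.38 to 0.066, adjusted p = 0.536).

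Slc25a17 (ENSMUSG00000022404, chromosome 15 from 81318911 to 81360812, minus strand), the carrier of CoA, FAD and NAD, overlapped between all 4 groups. The level was 65.6 to 85.5 CPM in Ctrlm (median 72.3), 70.0 to 81.3 in cKOm (median 75.0), 74.1 to 92.2 in Ctrlf (median 81.3) and 62.0 to 86.6 in cKOf (median 75.9). The highest kidney was in Ctrlf and the lowest in cKOf. Its log2 fold change was 0.046 in males (95% interval -0.12 to 0.21, edgeR adjusted p = 0.860) and -0.13 in females (-0.30 to 0.031, adjusted p = 0.450). The upper bound in males was thus below the estimate for Abcd3 in the same kidneys, although the difference between the 2 genes was not tested.

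Pxmp4 (ENSMUSG00000000876, chromosome 2 from 154585758 to 154603708, minus strand) encodes PMP24, a membrane protein whose cargo is not established. Its level was 94.2 to 134 CPM in Ctrlm, with a median of 99.7, and 125 to 138 CPM in cKOm, with a median of 133. The highest Ctrlm kidney, replicate 3, lay among the cKOm kidneys, and the other 5 Ctrlm kidneys lay below all of them. This gave a log2 fold change of 0.32 (standard error 0.081, 95% interval 0.16 to 0.49, edgeR adjusted p = 0.0154, exact permutation p = 0.0108). In females, the level was 81.8 to 101 CPM in Ctrlf (median 91.7) and 98.5 to 125 in cKOf (median 107). In cKOf, 4 of 6 kidneys were above all Ctrlf kidneys, and the log2 fold change was 0.24 (standard error 0.081, 95% interval 0.077 to 0.41, adjusted p = 0.0878, exact permutation p = 0.0108). The male call was lost when every gene with a count was tested (log2 fold change 0.30, adjusted p = 0.0581) and without the 5 kidneys rich in hepatocyte transcripts (0.32, adjusted p = 0.144), whereas the female value passed when Ctrlm replicate 3, the kidney with the most hepatocyte transcripts, was left out of the joint fit (0.24, adjusted p = 0.0428).

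**Figure D3:**
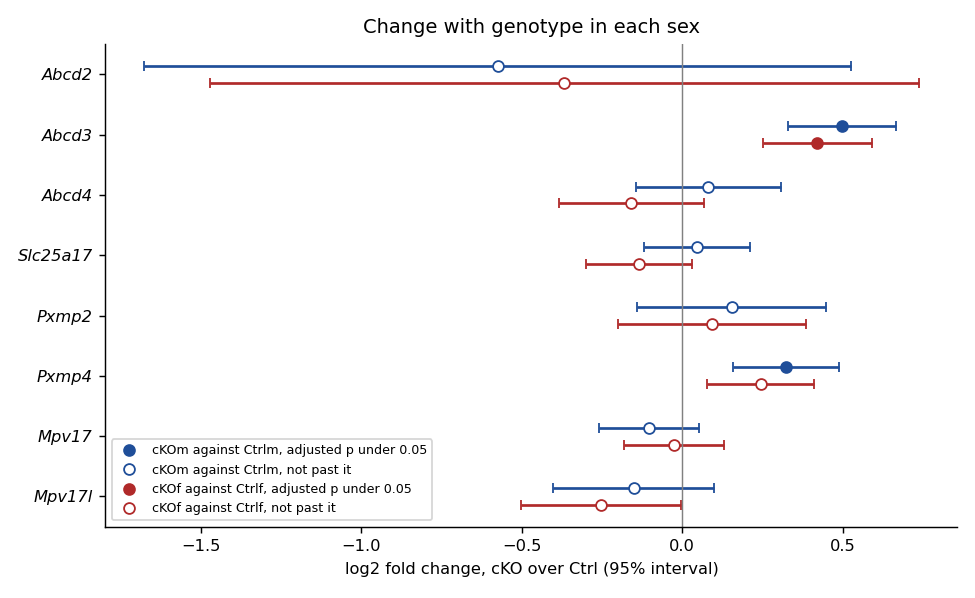
Log2 fold change of cKO over Ctrl with its 95% interval (x axis) for the 8 members (y axis), in males (blue) and females (red). Filled points passed the threshold, which were Abcd3 in both sexes and Pxmp4 in males, and the intervals of Abcd2 were the widest.

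PXMP2, MPV17 and MPV17L are related membrane proteins. PXMP2 is the channel of the peroxisome, MPV17 lies in the inner membrane of mitochondria and is needed to keep mitochondrial DNA, and MPV17L has forms placed in peroxisomes and in mitochondria. None of the 3 passed the threshold for genotype in either sex by edgeR. Before adjustment, Mpv17l in females was the single case with an edgeR p under 0.05, where 1083 of the 16092 genes tested had one in females. None of the 3 passed with DESeq2 or limma-voom after adjustment.

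Pxmp2 (ENSMUSG00000029499, chromosome 5 from 110274282 to 110286186, minus strand) was at 50.8 to 92.7 CPM in Ctrlm (median 59.2) and 62.6 to 82.0 in cKOm (median 72.8), and at 51.5 to 84.2 in Ctrlf (median 72.5) and 60.8 to 103 in cKOf (median 73.6). The groups overlapped widely. Its log2 fold change was 0.15 in males (95% interval -0.14 to 0.45, edgeR adjusted p = 0.681) and 0.091 in females (-0.20 to 0.38, adjusted p = 0.835), and the male value turned to -0.090 without the 5 kidneys rich in hepatocyte transcripts. The antisense gene Gm15788 covers 129 exonic bases of Pxmp2 (10.8%) and had a median of 13 counts against 1576.

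Mpv17 (ENSMUSG00000107283, chromosome 5 from 31140654 to 31154251, minus strand) was at 35.4 to 45.0 CPM in Ctrlm (median 39.4) and 32.6 to 39.0 in cKOm (median 37.4), and at 34.2 to 43.1 in Ctrlf (median 39.6) and 34.4 to 42.4 in cKOf (median 38.7). Of the 6 Ctrlm kidneys, 4 were above all cKOm kidneys. Its log2 fold change was -0.10 in males (95% interval -0.26 to 0.053, edgeR adjusted p = 0.576) and -0.026 in females (-0.18 to 0.13, adjusted p = 0.923). Mpv17 shares 463 exonic bases (14.4%) with the gene Gm29609 on the same strand, with which a stretch of 488 bases agrees at 94.9%, so reads there may be left out or divided and its level is uncertain. Gm29609 had a median of 7 counts against 799.

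Mpv17l (ENSMUSG00000022679, chromosome 16 from 13903161 to 13949619, plus strand) was higher in females than in males of the same genotype. Its level was 374 to 731 CPM in Ctrlm (median 518) and 406 to 577 in cKOm (median 474). In females, it was 736 to 940 CPM in Ctrlf (median 834) and 631 to 849 in cKOf (median 662). Males and females of the same genotype did not overlap. The log2 fold change with genotype was -0.15 in males (95% interval -0.40 to 0.099, edgeR adjusted p = 0.622) and -0.25 in females (-0.50 to -0.0030, adjusted p = 0.307).

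The comparison of the sexes asked whether the levels of the members themselves differed between male and female kidneys. Mpv17l was lower in males by 0.65 on the log2 scale between the control groups (standard error 0.12, 95% interval -0.90 to -0.40, edgeR adjusted p = 2.94e-04), which is 0.637 of the female level. It was the single one of 8 members called, where 16.8% of all genes tested differed between Ctrlm and Ctrlf, and the single one without overlap, where 7.35% of all genes had none. Without the 5 kidneys rich in hepatocyte transcripts, the value was -0.48 (adjusted p = 0.0745). Between the cKO groups, Mpv17l was again lower in males (log2 fold change -0.55, standard error 0.12, adjusted p = 0.00396).

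In cKO kidneys, Abcd3 and Pxmp4 were higher in males than in females. As log2 fold change, cKOm over cKOf was 0.28 for Abcd3 (standard error 0.082, edgeR adjusted p = 0.0311) and 0.29 for Pxmp4 (standard error 0.081, adjusted p = 0.0253), and the groups did not overlap for either gene. With Mpv17l, 3 of 8 members thus differed between cKOm and cKOf, where 8.14% of all genes tested did, and 3 of 8 did not overlap, where 6.77% of all genes did not. Between Ctrlm and Ctrlf, the values for Abcd3 and Pxmp4 were 0.20 (adjusted p = 0.0919) and 0.21 (adjusted p = 0.0823). The 2 comparisons of the sexes share their mice with the comparisons of the genotypes. Between cKOm and cKOf, sex and the degree of deletion cannot be told apart. The call between cKOm and cKOf for Abcd3 was lost when every gene with a count was tested (0.28, adjusted p = 0.0759). Leaving out 1 kidney could end the call for Abcd3 (cKOf replicates 1, 5 and 6, cKOm replicates 2, 3 and 5, adjusted p from 0.0540 to 0.0903) and for Pxmp4 (cKOf replicates 1, 3 and 5, cKOm replicate 1, adjusted p from 0.0514 to 0.0606).

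The change with genotype was then compared between the sexes. The interaction passed the threshold for 0 of 8 members by edgeR, where 2.31% of all genes tested passed. Before adjustment, a p under 0.05 was found for 0 of 8 members and for 2159 of the 16092 genes tested. The number of members past the threshold was 0 by DESeq2 and limma-voom too. The difference of the male and the female log2 fold change was 0.076 for Abcd3 (95% interval -0.16 to 0.31, adjusted p = 0.827) and 0.079 for Pxmp4 (-0.16 to 0.31, adjusted p = 0.815). The call of Pxmp4 in males without one in females is thus not a measured difference between the sexes. The largest estimates were 0.24 for Abcd4 (-0.079 to 0.56, adjusted p = 0.536) and 0.18 for Slc25a17 (-0.054 to 0.41, adjusted p = 0.525), apart from Abcd2 (-0.21, interval -1.77 to 1.35).

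Levels of different genes were compared per length, as CPM per kilobase of the union of their exons. In Ctrlm the order was Mpv17l (142 CPM per kb), Abcd3 (72.4), Pxmp2 (53.5), Pxmp4 (34.0), Slc25a17 (25.7), Mpv17 (12.3), Abcd4 (3.98) and Abcd2 (0.224). Abcd3 and Pxmp2 overlapped between kidneys, as did Pxmp2 and Pxmp4, and the other neighbours did not. The order of the means was the same in cKOm, Ctrlf and cKOf, although Mpv17l and Abcd3 came closer in cKOm, at 128 and 102 CPM per kb, and overlapped there. In Ctrlf, Pxmp4 (29.4) and Slc25a17 (28.7) overlapped as well. With the length of the longest transcript in place of the union, Abcd3 came first in cKOm (193 against 156 for Mpv17l), and Slc25a17 was ahead of Pxmp4 in Ctrlm, Ctrlf and cKOf. By either length, Abcd2 was last in the means of all groups. Its Ctrlm mean was 0.224 or 0.241 CPM per kb, against 72.4 or 137 for Abcd3. The place of Abcd4 is uncertain, as its longest transcript (3698 bases) has 1 exon and the union of its exons is 8006 bases. In plain CPM the Ctrlm mean was 31.9 for Abcd4 and 39.5 for Mpv17.

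**Figure D4:**
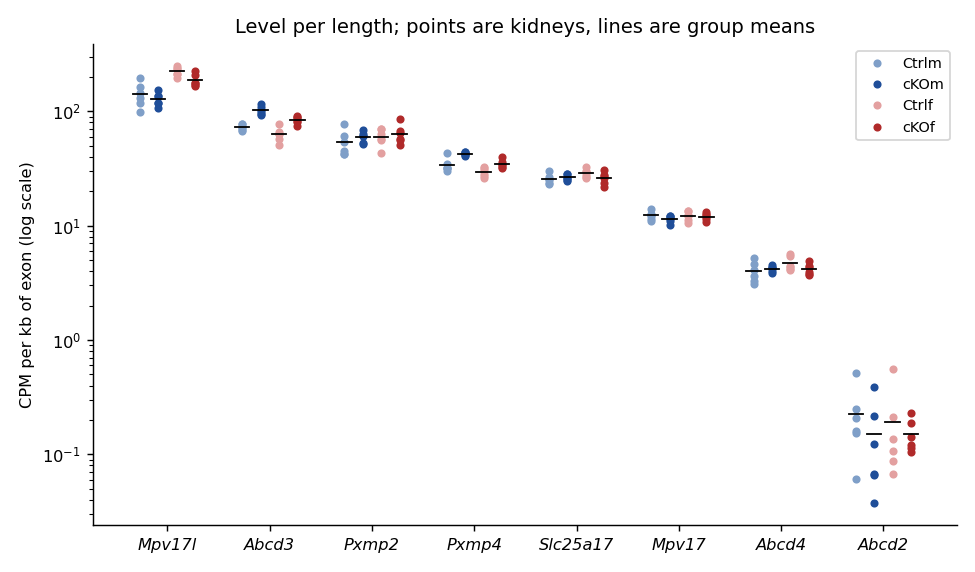
Level per length of the 8 members in CPM per kb of exon (y axis, log scale), ordered by their mean over 24 kidneys, with 1 column of points per group. Points are kidneys and lines are group means. Mpv17l stands at 142 and Abcd2 at 0.224 CPM per kb in Ctrlm.

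Across the 24 kidneys, each member was set beside the genes whose log2 CPM followed it most closely, among those with a mean of at least 5 CPM. These correlations are descriptions, as both genes of a pair were read from the same libraries and the kidneys fall into 4 groups. For Abcd3 the closest gene was Hsd17b4 (r = 0.89, and 0.65 after the group means were subtracted), the multifunctional enzyme that takes part in the oxidation of very long-chain and branched-chain acyl-CoA and of bile acid intermediates, followed by Vnn1 (0.88 and 0.58), a pantetheinase, and Aldh1a7 (0.87 and 0.43), an aldehyde dehydrogenase. For Pxmp4 it was Crat (0.88 and 0.79), the carnitine acetyltransferase of peroxisomes and mitochondria, followed by the citrate carrier Slc25a1 (0.87 and 0.67) and the enoyl-CoA isomerase Eci2 (0.82 and 0.53). For Mpv17l it was Akr1c18 (0.91 and 0.69), a steroid dehydrogenase, then Ppic (0.88 and 0.63) and Nceh1 (0.86 and 0.45). Abcd3 and Pxmp4 correlated with each other with r = 0.78, which was 0.13 after the group means were subtracted.

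The closest genes for Abcd2 were Prkar2b (r = 0.82), a subunit of protein kinase A, Thrsp (0.80), a regulator of lipogenesis, and Cfd (0.80), itself one of the adipocyte markers. Abcd4 was followed by Pnpla7 (0.88), a lysophospholipase, and by Ist1 and Ctdsp2 (0.77 each). Among the closest genes for Slc25a17 were Wdr5 (0.75) and Mtg2 (0.73). For Pxmp2 they were the ribosomal protein gene Rpl23 (0.83), the fatty acid-binding protein gene Fabp3 (0.83) and Spa17 (0.82), and for Mpv17 they were Slc45a3 (0.67), Rasl11a (0.65) and Lix1l (0.64). After the group means were subtracted, these values lay between 0.62 and 0.85.

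The genes around the members were described by lists for the pathways that the transporters serve. The list of peroxisomal beta-oxidation, which uses the substrates of ABCD2 and ABCD3, had 20 tested genes, of which 6 rose and 5 fell in males, and 5 rose and 1 fell in females. Over all genes tested, 4.14% rose and 4.9% fell in males and 0.391% rose and 0.46% fell in females. The median log2 fold change of the list was 0.13 in males and 0.17 in females, and that of males was -0.037 without the 5 kidneys rich in hepatocyte transcripts, where 4 genes rose and 5 fell. Genes that rose in both sexes were Acaa1b (1.23 and 1.14), a thiolase, Ehhadh (0.75 and 0.54), the bifunctional enzyme, and the acyl-CoA thioesterases Acot3 (2.00 and 0.96) and Acot4 (0.68 and 0.47). Acox3, an oxidase of branched-chain acyl-CoA, fell in both (-1.04 and -0.29). In males, Amacr (-1.36), the racemase of branched-chain acyl-CoA, and Pecr (-1.29), a reductase, fell as well. For 7 of the 20 genes the male and female changes differed (interaction, edgeR adjusted p under 0.05), 1 with a higher and 6 with a lower value in males.

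Genes of membrane biogenesis, division and tethering, which place and maintain the members' membrane, were mostly not past the threshold. Of 19 tested genes, 2 rose and 2 fell in males and 1 rose in females. These were 21.1% and 5.26% of the list, where 9.05% and 0.851% of all genes tested passed. Pex11a, which elongates peroxisomes before division, rose in both sexes (0.39, edgeR adjusted p = 0.00847, and 0.49, adjusted p = 0.00100). In males, Acbd4, a tether to the endoplasmic reticulum, fell by 0.63 (adjusted p = 0.00213) and Pex11g by 0.52 (adjusted p = 0.0490). With the hepatocyte covariate, and without the 5 kidneys, none of the 19 passed in males by edgeR. An unadjusted p under 0.05 was found for 5 and 4 of them. With all kidneys and no covariate, it was found for 7 of the 19 and for 4039 of the 16092 genes tested. The membrane protein receptors Pex3, Pex16 and Pex19 had male values from -0.077 to -0.050 and did not pass.

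The list of CoA and cofactor handling held 12 genes for enzymes that make or break down cofactors of the kind SLC25A17 carries. Of these, 1 rose and 3 fell in males and 1 rose in females. These were 33.3% and 8.33% of the list, where 9.05% and 0.851% of all genes tested passed. Nudt7, a peroxisomal CoA diphosphatase, rose in both sexes (0.46, edgeR adjusted p = 0.00161, and 0.38, adjusted p = 0.0100). Without the 5 kidneys rich in hepatocyte transcripts, 0 of the 12 were called higher and 3 were called lower in males by edgeR. An unadjusted p under 0.05 in either direction was found for 5 of the 12 in that fit. With all kidneys, it was found for 5 of the 12 and for 4039 of the 16092 genes tested. In males, Nudt19 (-1.09), another peroxisomal CoA diphosphatase, Coasy (-0.80), the last enzyme of CoA synthesis, and Pank1 (-0.50), the first, fell. Of 12 genes of cobalamin transport and use, the pathway of ABCD4, Mmab rose in males (0.64, adjusted p = 1.75e-05). This 1 gene was 8.33% of the list, near the 9.05% of all genes tested that passed in males. In females none passed by edgeR, DESeq2 or limma-voom. An unadjusted edgeR p under 0.05 was found for 1 of the 12 and for 1083 of the 16092 genes tested. Of 14 genes of mitochondrial DNA maintenance, the pathway of MPV17, Slc25a4, the ADP/ATP carrier, rose in males (0.38, adjusted p = 0.0172). This 1 gene was 7.14% of the list, again near 9.05%. It did not pass with the hepatocyte covariate or without the 5 kidneys, where 2 other genes fell. In females none passed by edgeR, DESeq2 or limma-voom, and 2 of the 14 had an unadjusted edgeR p under 0.05, beside the same 1083 of 16092 genes.

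The last list held genes that respond to PPARα, the nuclear receptor that fatty acids activate. Of 16 tested genes, 10 rose and 1 fell in males and 6 rose in females, with a median log2 fold change of 0.96 and 0.54. These were 68.8% and 37.5% of the list, where 9.05% and 0.851% of all genes tested passed. Genes that rose in both sexes were Cyp4a10 (1.55 and 1.09), the thioesterases Acot1 (1.30 and 1.06) and Acot2 (1.48 and 0.61), Angptl4 (1.54 and 1.36), Vnn1 (0.85 and 0.77) and Slc25a20 (0.80 and 0.46). In males, Cyp4a14 (4.33) and Pdk4 (2.15) were among the highest values. Without the 5 kidneys rich in hepatocyte transcripts, 6 rose and 1 fell in males.

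**Figure D5:**
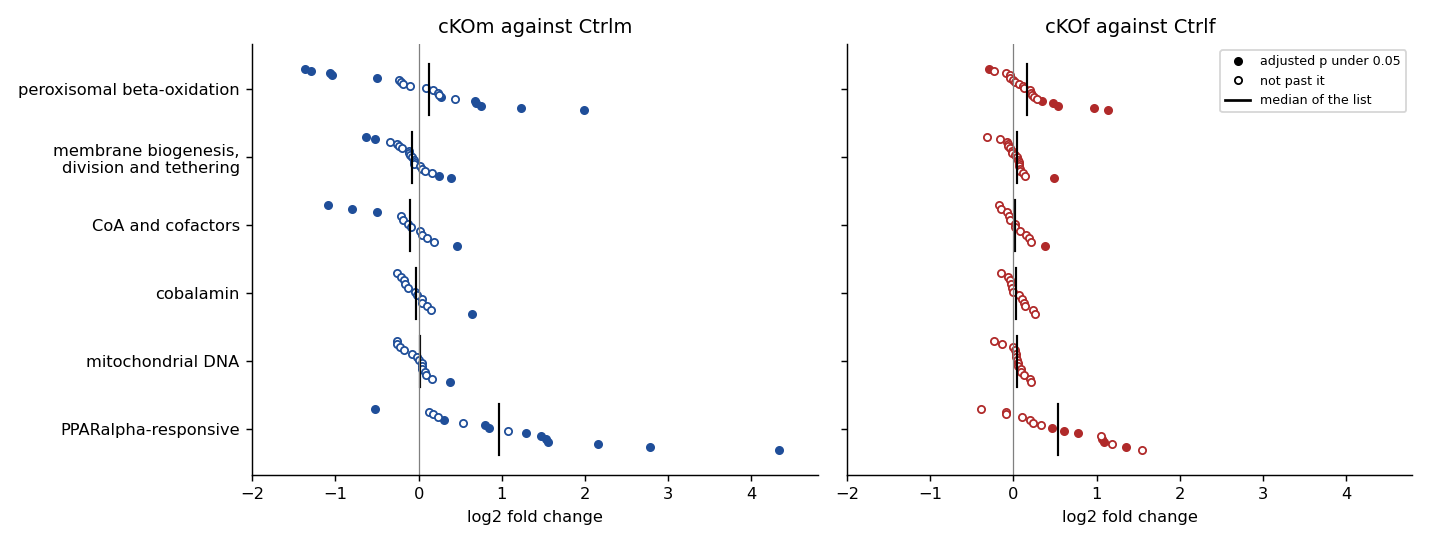
Log2 fold change of cKO over Ctrl (x axis) for the genes of 6 lists (y axis), in males (left) and females (right). Each point is a gene, filled where it passed the threshold, and the vertical line is the median of the list. The median of the PPARα-responsive list is 0.96 in males and 0.54 in females, and those of the membrane biogenesis, cofactor, cobalamin and mitochondrial DNA lists are near 0.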

How the data were processed

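The authors deposited raw read counts per gene for each kidney. Per the labels, reads were trimmed with cutadapt 1.8, aligned to GRCm38 with STAR 2.5.3a and counted with HTSeq 0.9.1; the strand setting was not given in the sources used here. The 5 closing lines of each file (ambiguous reads, 0.706% to 0.939%, and others) were set aside.

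Any gene that reached 1 CPM in a kidney was tested in R 4.3.3 with edgeR 4.0.16 (TMM, 1 model of 4 groups, quasi-likelihood tests). P values of the male and female tests were adjusted jointly (Benjamini-Hochberg), those of other contrasts over all genes, with a threshold of 0.05. Single levels were compared by exact two-sided permutation over 924 arrangements. Log2 CPM used a prior count of 2. The procedure was tested on simulated data.

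The members and lists were chosen with earlier results of these data known. Named are the members, Pex5, from each list the genes past the threshold in both sexes and the 3 largest changes per sex, and the closest correlates; other genes, most promoter motifs, the adipocyte covariate and the omission of 5 kidneys were chosen after the values were seen. Some genes that this rule picks are not reported here. Alternatives were limma-voom (limma 3.58.1), DESeq2 1.42.0, RLE normalization, other filters, each sex alone, other adjustment, the replicate number as a block, a hepatocyte covariate and each kidney left out. P values set a difference against the spread between mice. Overlaps came from GENCODE M21 and copies from BLAST 2.17.0.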

Additional observations from a re-analysis of the deposited data

Results flagged for a closer look

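A single kidney stood far from the other 5 of its group in 2 of 32 groups of members' levels (gap to the nearest kidney over the range of the group). About 1 in 20 such groups is marked by chance. Abcd2 was at 3.29 CPM in Ctrlf replicate 6, and this kidney had 389 CPM of adipocyte markers against 38.5 to 51.7 in the others. Pxmp4 was at 134.2 CPM in Ctrlm replicate 3, and this kidney had 974 CPM of hepatocyte markers, the most of the 24. What set either value apart was not tested.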

How the results depend on the processing

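Abcd3 passed the threshold in females under all 35 alternatives (log2 fold change 0.36 to 0.49, highest adjusted p 0.0152) and in males under 34 of 35 (0.43 to 0.52). Mpv17l differed between cKOm and cKOf under all 34 alternatives. The number of members called in males was 1 with no filter on low counts and 0 without the 5 kidneys rich in hepatocyte transcripts, where 2 Ctrlm mice remain. Between Ctrlm and Ctrlf it was 3 with DESeq2, which added Abcd3 (0.23, adjusted p = 0.0442) and Pxmp4 (0.23, adjusted p = 0.0409), and 0 without the 5 kidneys. With each kidney left out in turn, the counts were 2 to 2 in males, 1 to 2 in females, 1 to 3 between Ctrlm and Ctrlf and 1 to 3 between cKOm and cKOf. The Ctrlm against Ctrlf count was 2 without Ctrlf replicate 2 or 4 and 3 without Ctrlm replicate 2. The share of all genes called under each of these alternatives is not reported here. A changed count is thus not a result particular to the members.

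Values that changed sign did not pass the threshold under any setting. Without the 5 kidneys, these were Slc25a17 (-0.035) and Pxmp2 (-0.090) in males, the interactions of Pxmp2 (-0.18) and Mpv17l (-0.095), Pxmp2 (0.025) and Mpv17 (-0.023) between Ctrlm and Ctrlf, and Slc25a17 between cKOm and cKOf (-0.0028). Between cKOm and cKOf, Abcd2 was -0.38 with limma-voom, -0.00047 with at least 1 CPM in 6 kidneys and -0.33 with the adipocyte covariate, and Abcd4 was -0.0023 with the stricter filter. With each kidney left out, signs changed between cKOm and cKOf for Abcd2 (-0.55 to 0.21), Abcd4 (-0.028 to 0.053), Slc25a17 (-0.027 to 0.069) and Pxmp2 (-0.16 to 0.0013), between Ctrlm and Ctrlf for Abcd2 (-0.19 to 0.88) and Mpv17 (-0.034 to 0.056), in females for Abcd2 (-0.54 to 0.30), Pxmp2 (-0.013 to 0.15) and Mpv17 (-0.063 to 0.0047), and for the interactions of Abcd2 (-0.88 to 0.19) and Pxmp2 (-0.024 to 0.20). The causes were not tested.

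The replicate number did not pair the mice: same-numbered kidneys deviated together with r from -0.20 to 0.12 over 12 pairs, and 2 kidneys correlated best with their own number. With the number as a replicate block, the count of members called did not change in any comparison, and Abcd2 between cKOm and cKOf was -0.12. Of the members, Abcd2 had the fewest reads, with 5 to 76 counts per kidney.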
